A study of Mus musculus with 6 samples.

Results

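FGF signalling was described here through 10 genes: the ligands Fgf10 and Fgf9, the receptors Fgfr1, Fgfr2, Fgfr3 and Fgfr4, the feedback inhibitors Spry2 and Spry4, and the target transcription factors Etv4 and Etv5. They were a list of named genes, and all 10 had a probe of their own among the 19938 genes measured. Lung buds were taken from mouse embryos at E11.5, where E counts days of embryonic life. The 3 control arrays came from buds with the genotype Shhcre. The 3 DKO (double knockout) arrays came from buds with the genotype Shhcre:Hdac1fl/fl; Hdac2 fl/fl. Shhcre was thus shared by both groups, while the floxed alleles of the histone deacetylase genes Hdac1 and Hdac2 were in the DKO alone. The strain given for all 6 samples combines C57BL/6, 129X1 and 129S1. Shhcre drives Cre recombinase from the Sonic hedgehog locus, which is active in lung epithelium and little in lung mesenchyme. The RNA came from whole buds, so mesenchyme, mesothelium, vessels and blood were measured together with the epithelium. The arrays of a group are labelled biological replicates. Pooling of embryos is neither stated nor denied there, and every p-value rests on the scatter among these 6 arrays. The question was which of these genes differed when Hdac1 and Hdac2 were deleted.

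Fibroblast growth factors are secreted ligands that bind receptor tyrosine kinases together with heparan sulfate. In the lung bud, Fgf10 is made by the distal mesenchyme and binds the epithelial splice form of Fgfr2, which draws the epithelial tip outward. Receptor activity runs through the ERK kinase pathway to Etv4 and Etv5, which belong to the ETS family of transcription factors, and to Sprouty proteins, which damp the same pathway. Fgf9 comes from mesothelium and epithelium and signals to the mesenchyme, largely through Fgfr1 and Fgfr2.

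Levels are the deposited log2 values, on which 1 unit is a doubling, and changes are DKO minus control. Over all 19938 genes, limma called 481 at an adjusted p (Benjamini-Hochberg) under 0.05, which is 2.41%, with 1.03% higher and 1.38% lower in DKO. The targeted gene Hdac1 was lower (-0.28, SE 0.05, limma adjusted p = 0.0193) and Hdac2 stood at -0.04 (95% interval, as for all intervals here, -0.17 to 0.08). The position of both probes relative to the floxed exons was not determined, so neither tests the deletion. Leaving out any array but DKO 2 cost Hdac1 its call (adjusted p up to 0.112). Correlations between arrays over all genes were 0.995 to 0.999. The DKO arrays scattered more around their group mean (standard deviation 0.0706 to 0.109) than the control arrays (0.0604 to 0.0651).

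Among the 10 genes, Fgf10 rose and Fgfr2, Fgfr4, Etv5 and Fgfr3 fell, while Fgf9, Fgfr1, Spry2, Spry4 and Etv4 did not pass the threshold. The ligand rose 2.07-fold in the same buds in which its main receptor fell 1.5-fold. In whole buds, fewer cells of a type and less RNA per cell cannot be told apart. Of 27 epithelial markers measured, 12 fell and 0 rose. The 5 calls stand against the 2.41% of all genes called. The 10 genes and the lists were chosen with earlier results of these data known, so such shares only describe them. The median change over the 10 genes was -0.10, against 0.00 over all genes. The DKO and control values did not overlap for 7 of the 10 genes, against 18.8% of all genes. All 10 genes had a larger standard deviation (SD) in the DKO than in the control arrays, which was true of 67.8% of all genes.

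**Figure D1:**
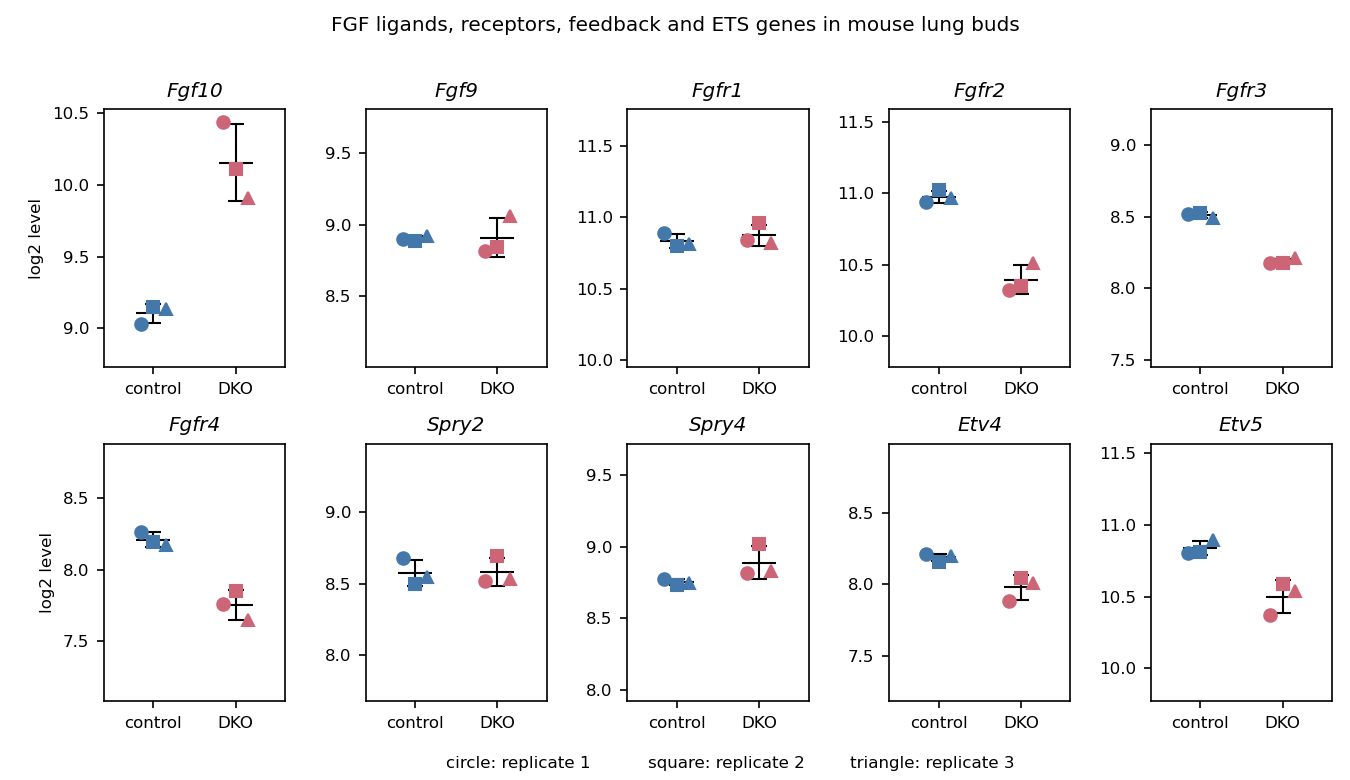
Log2 level of the 10 FGF genes in each array, with control in blue and DKO in red; marker shapes give the replicate number, horizontal bars the group mean and whiskers the SD (n = 3 per group). Every panel spans the same width on the log2 axis, so the separation of Fgf10 upward and of Fgfr2, Fgfr3, Fgfr4 and Etv5 downward can be compared with the overlapping values of Fgf9, Fgfr1 and Spry2.

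Fgf10, the mesenchymal ligand that drives budding, had log2 levels of 9.03, 9.14 and 9.14 in controls 1 to 3 and of 10.44, 10.11 and 9.91 in DKO 1 to 3. The lowest DKO value lay 0.76 above the highest control value. The control mean was 9.10 ± 0.07 (SD, n = 3) and the DKO mean 10.15 ± 0.27 (SD, n = 3). The change was 1.05 (SE 0.12, interval 0.79 to 1.31, limma adjusted p = 0.00236), and 5 of all genes had a larger rise. The DKO arrays spread more widely than the controls, with DKO 1 the highest and DKO 3 the lowest of them. Leaving out each array in turn gave changes of 0.91 to 1.17, all past the threshold.

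Fgf9, the ligand of mesothelium and epithelium, had levels of 8.90, 8.88 and 8.92 in controls 1 to 3 and of 8.82, 8.84 and 9.06 in DKO 1 to 3. The groups overlapped, with DKO 3 above all controls and DKO 1 and 2 below them. The change was 0.01 (interval -0.15 to 0.17, limma adjusted p = 0.982), with all 3 controls within the range of the DKO arrays.

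Fgfr2, the receptor through which Fgf10 acts on the epithelium, had levels of 10.94, 11.02 and 10.96 in controls 1 to 3 and of 10.32, 10.35 and 10.51 in DKO 1 to 3. All DKO values lay below all controls, by at least 0.43. The fall was -0.58 (SE 0.06, interval -0.72 to -0.44, limma adjusted p = 0.00211), and 72 of the 19938 genes fell further. The probe gives 1 value for the gene, so the epithelial and mesenchymal splice forms of Fgfr2 were not separated.

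Fgfr4, which acts with Fgfr3 in later alveolar development, had levels of 8.27, 8.19 and 8.17 in controls 1 to 3 and of 7.76, 7.85 and 7.65 in DKO 1 to 3. The groups did not overlap, and the fall was -0.46 (SE 0.06, 1.37-fold, limma adjusted p = 0.00715). Fgfr3 had 8.52, 8.53 and 8.49 in controls 1 to 3 and 8.18, 8.17 and 8.21 in DKO 1 to 3. The Fgfr3 arrays agreed closely within each group, with an SD of 0.02 in both, and the fall was -0.32 (SE 0.05, 1.25-fold, limma adjusted p = 0.0083). Fgfr3 lost its call without control 1 (adjusted p = 0.0556) or control 2 (0.0568), at changes of -0.32 in both.

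Fgfr1, the receptor most prominent in mesenchyme, had levels of 10.89, 10.80 and 10.81 in controls 1 to 3 and of 10.84, 10.96 and 10.82 in DKO 1 to 3. These groups overlapped, with a change of 0.04 (interval -0.09 to 0.17, limma adjusted p = 0.862). Whether the other receptors changed by a different amount was tested within each array, on the table of every gene minus Fgfr1. Relative to Fgfr1, Fgfr2 fell by 0.62 (SE 0.08, limma adjusted p = 0.000383), Fgfr4 fell by 0.50 (SE 0.07, adjusted p = 0.000486) and Fgfr3 fell by 0.36 (SE 0.07, adjusted p = 0.0114). Etv5 also fell relative to Fgfr1 (-0.38, SE 0.08, adjusted p = 0.0111) and Fgf10 rose (1.01, SE 0.11, adjusted p = 4.5e-05). That is 5 calls of 9 genes. Over all other genes, 2.4% were called relative to Fgfr1, 0.697% higher and 1.7% lower. The call of Fgfr3 was lost without control 2 (adjusted p = 0.101), and that of Etv5 without control 2, control 3 or DKO 1 (0.0513 to 0.0828). The same Fgfr1 values were subtracted from every gene, so all genes share their scatter and these p-values can overstate the evidence. Without this reference, Fgf10 had a limma adjusted p of 0.00236 at a change of 1.05.

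**Figure D2:**
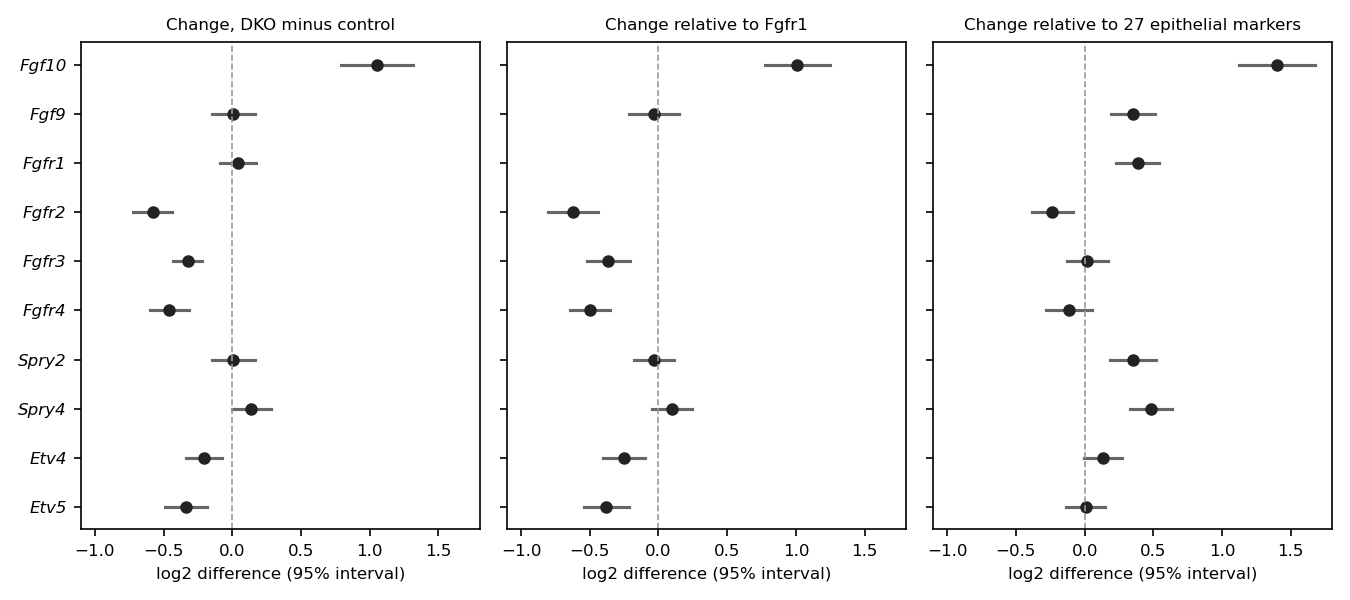
Change of each FGF gene on the log2 scale with its 95% interval, as DKO minus control (left), relative to Fgfr1 in the same array (middle) and relative to the mean of 27 epithelial markers in the same array (right). Fgf10 lies above 0 in all panels, and Fgfr3 and Etv5 lie below 0 in the left and middle panels and near 0 on the right.

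Etv5, the ETS factor induced by Fgf10 at the bud tips, had levels of 10.81, 10.81 and 10.89 in controls 1 to 3 and of 10.37, 10.59 and 10.54 in DKO 1 to 3 on its brighter probe. The groups did not overlap, and the fall was -0.34 (SE 0.07, 1.26-fold, limma adjusted p = 0.0366). A second Etv5 probe gave 10.26, 10.17 and 10.46 in controls 1 to 3 and 9.79 and 9.95 in DKO 1 and 3, with DKO 2 the highest of the DKO arrays and below all controls, a change of -0.38 (SE 0.09) that missed the threshold (limma adjusted p = 0.0648 over all probes). Etv5 was the only one of the 10 genes with a second probe, and both probes pointed down. Its call was lost with every array but DKO 2 left out in turn (adjusted p = 0.0646 to 0.171, at changes of -0.36 to -0.27).

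Etv4, the partner of Etv5 downstream of FGF receptors, had levels of 8.21, 8.16 and 8.19 in controls 1 to 3 and of 7.88, 8.04 and 8.01 in DKO 1 to 3. All DKO values lay below all controls, with a change of -0.21 (SE 0.06, interval -0.34 to -0.08). Its limma adjusted p of 0.125 missed the threshold, which it passed with array weights (0.0204).

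Spry2, the Sprouty inhibitor of the branching epithelium, had levels of 8.68, 8.50 and 8.55 in controls 1 to 3 and of 8.52, 8.70 and 8.53 in DKO 1 to 3. The groups overlapped throughout, with a change of 0.01 (interval -0.15 to 0.16, limma adjusted p = 0.98). Spry4, a Sprouty of lung mesenchyme and epithelium, had 8.77, 8.74 and 8.75 in controls 1 to 3 and 8.82, 9.02 and 8.83 in DKO 1 to 3. The Spry4 values of DKO lay just above the controls, with a change of 0.14 (interval -0.01 to 0.28, limma adjusted p = 0.415). DKO 2 was the highest DKO array for Spry2, Spry4, Fgfr1, Fgfr4, Etv4 and Etv5, whereas DKO 1 was the highest for Fgf10.

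RefSeq promoter windows were found for 7 of the 10 genes (assembly GRCm38.p6), and Fgfr1, Spry4 and Etv4 had no entry. Those of 4 called genes are shown, since they are the ligand that rose, the receptors with the largest falls and the target that fell. Each run is the 250 bases before the gene's start, 5′ to 3′ on the gene's strand: Fgf10 at chr13:118714449-118714698 (+), Fgfr2 at chr7:130266809-130267058 (-), Fgfr4 at chr13:55152568-55152817 (+) and Etv5, the first of its 2 starts, at chr16:22439571-22439820 (-). Capitals mark matches to the motifs searched.
Fgf10: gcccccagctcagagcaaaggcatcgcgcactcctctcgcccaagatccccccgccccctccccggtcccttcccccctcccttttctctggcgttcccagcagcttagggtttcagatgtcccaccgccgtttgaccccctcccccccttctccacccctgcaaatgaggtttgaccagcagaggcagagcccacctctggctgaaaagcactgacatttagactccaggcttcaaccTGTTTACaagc
Fgfr2: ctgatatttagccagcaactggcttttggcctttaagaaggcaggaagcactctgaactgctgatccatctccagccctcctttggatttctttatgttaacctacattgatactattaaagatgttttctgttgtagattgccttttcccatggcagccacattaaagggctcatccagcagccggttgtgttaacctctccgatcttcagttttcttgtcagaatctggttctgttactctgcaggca
Fgfr4: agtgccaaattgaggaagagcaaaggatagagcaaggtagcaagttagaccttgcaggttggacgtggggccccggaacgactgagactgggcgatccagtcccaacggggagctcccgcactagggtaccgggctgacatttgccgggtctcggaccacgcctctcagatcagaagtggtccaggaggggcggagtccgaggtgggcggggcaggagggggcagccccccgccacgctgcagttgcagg
Etv5: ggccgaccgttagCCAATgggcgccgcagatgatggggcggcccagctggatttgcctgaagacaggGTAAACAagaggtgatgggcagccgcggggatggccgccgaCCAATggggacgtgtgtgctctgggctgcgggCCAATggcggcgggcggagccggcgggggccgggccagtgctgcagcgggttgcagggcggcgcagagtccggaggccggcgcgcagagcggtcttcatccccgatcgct
The motifs were CCGGAAG (ETS factors), GACCACCCA (GLI factors), TGTTTAC (forkhead factors), CTCAAG (NKX2-1), AACCGGTT (Grainyhead factors), TATAAA and CCAAT, each on both strands. Of all 32851 windows, 6.91%, 0.225%, 3.17%, 13.3%, 0.116%, 12.4% and 33.8% held them, in that order. Fgf10 had 1 forkhead match, beginning 11 bases before the start. Etv5 had 1 forkhead match, beginning at 183 bases, and 3 CCAAT matches at 237, 142 and 110 bases, none of which overlapped. Neither Fgfr2 nor Fgfr4 had a match in this window. Of the windows not shown, the first start of Fgfr3 had an NKX2-1 match at 203 bases and a CCAAT match at 188, the second start of Etv5 had a CCAAT match at 224, and those of Fgf9, Spry2 and the second start of Fgfr3 had none. The windows also differed in composition: Fgfr2 held 2 CpG dinucleotides at 44% G and C, Fgf10 held 8 at 61.2%, Fgfr4 held 15 at 64% and Etv5 held 27 at 71.2%, against medians of 6 and 52.4% over all windows. The arrays do not show which start was used, and a match is a run of letters, not a measured site.

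Among 75 other genes of the FGF pathway measured, in 5 lists, the intracellular homologue Fgf12 rose and the cell cycle gene Ccnd1 fell. These 2 calls of 75 are a share near the 2.41% of all genes. The median over these 75 was -0.01. Fgf12, which is not secreted and binds sodium channels, had levels of 6.95, 7.0 and 7.0 in controls 1 to 3 and of 7.37, 7.59 and 7.31 in DKO 1 to 3 (change 0.44, SE 0.07, limma adjusted p = 0.019). Ccnd1, which encodes cyclin D1 and responds to growth factors, had a mean of 11.76 ± 0.03 (SD, n = 3) in control and of 11.42 ± 0.12 (SD, n = 3) in DKO (change -0.34, SE 0.07, limma adjusted p = 0.0355). In both genes the groups did not overlap. Fgf12 lost its call without control 1, 2 or 3, and Ccnd1 kept it without DKO 2 and lost it without each of the other arrays.

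None of the 16 other secreted ligands was called by limma, and 1 had an unadjusted p under 0.05, a level reached by 12.8% of all genes. That was Fgf7, the close relative of Fgf10 that also binds the epithelial form of Fgfr2 (-0.20, interval -0.33 to -0.08, adjusted p = 0.114). Its signal was dim, with means of 6.36 in control and 6.16 in DKO, at percentile 17.7 of all genes. The next largest value was that of Fgf5 (-0.11, adjusted p = 0.713). The changes of these ligands had a median of 0.01. Limma called 0 of 25 co-receptors and heparan sulfate genes, with 4 at an unadjusted p under 0.05 (a share near the 12.8% of all genes), 19 of the 25 below 0 and a median of -0.05. The largest values were -0.19 for the FGF carrier Fgfbp1, likewise dim (percentile 15.4), and -0.18 for the syndecan Sdc4. It also called 0 of 15 adaptors and kinases of the ERK relay, with 1 at an unadjusted p under 0.05, the ERK kinase kinase gene Map2k2 (-0.17, adjusted p = 0.265). The next largest was the survival kinase gene Akt1 (-0.10). With array weights, Fgf7, Sdc4 and the sulfatase gene Sulf2 also passed.

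Feedback and target genes of the pathway outside the 10 genes lay mostly above 0, unlike Etv4 and Etv5. Among the 10 genes, the feedback inhibitors Spry2 (0.01) and Spry4 (0.14) did not lie below 0 either, and neither passed. Of 15 measured, Ccnd1 fell, 0 rose and 11 of 15 values were above 0, against 50.2% of all genes. The list's median was 0.08. Dusp6, the ERK phosphatase that FGF signalling induces, had levels of 10.09, 9.99 and 10.07 in controls 1 to 3 and of 10.28, 10.34 and 10.26 in DKO 1 to 3. All DKO values lay above all controls, with a change of 0.24 (SE 0.05, limma adjusted p = 0.0529). Dusp6 passed with an intensity trend (0.0125), array weights (0.0111), a second quantile normalization (0.0497) and without the dimmest 30% of genes (0.0293). These fits called 725, 2003, 503 and 603 genes in all, in that order, against 481 in the main fit. Etv1, the third ETS factor of the group of Etv4 and Etv5, stood at 0.26 (adjusted p = 0.102), and Spry3 at 0.26 (adjusted p = 0.136). A second, dimmer Etv1 probe stood at 0.14 (limma adjusted p = 0.33 over all probes). Dusp6, Etv1 and Spry3 are named here because of their values.

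**Figure D3:**
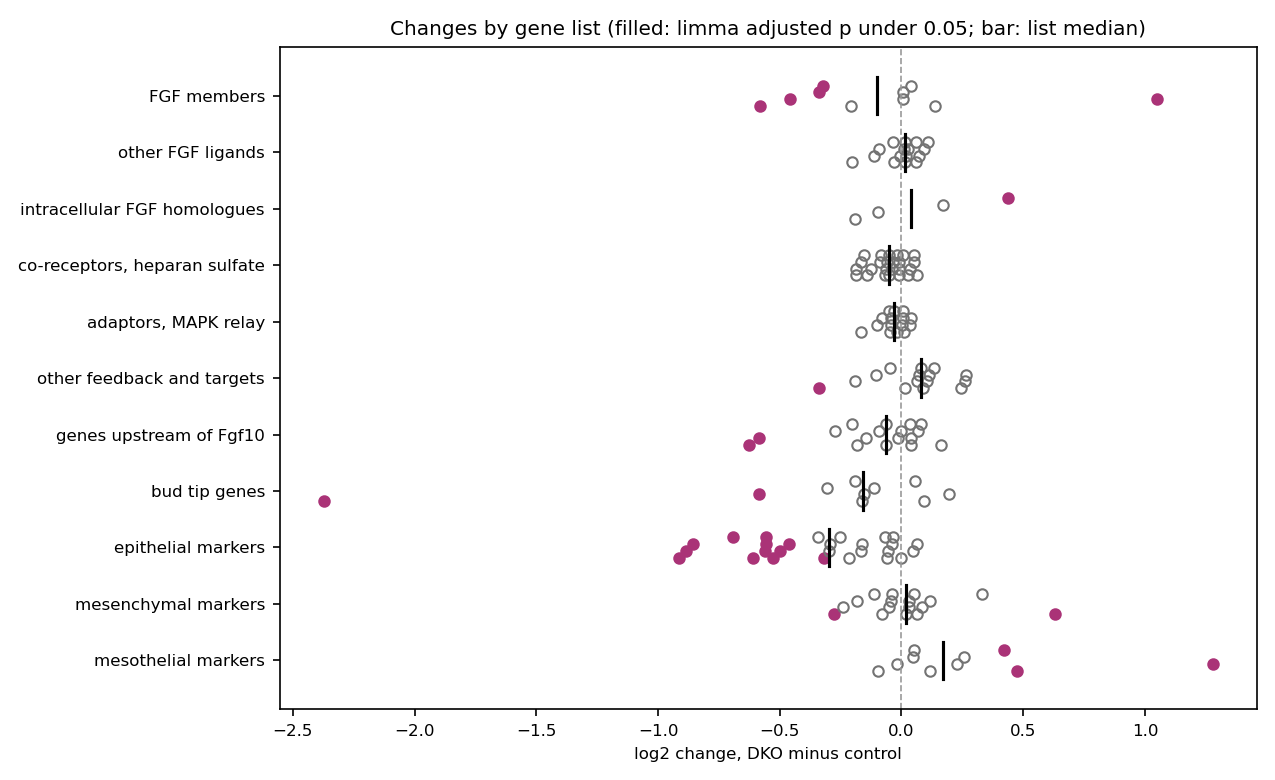
Log2 change of each measured gene by list; filled points passed limma's adjusted p under 0.05, open points did not, and the vertical bar is the list's median. The FGF genes hold 5 filled points of 10, the other FGF pathway lists hold 2 of 75, and the epithelial markers hold 12 of 27.

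Genes placed upstream of Fgf10 or at the bud tip held 4 calls, all of them falls, where 1.38% of all genes were called lower. Of 17 genes known to act on Fgf10 or to pattern the mesenchyme that makes it, Eya1 and Hhip fell and 0 rose. Eya1, a transcriptional coactivator of the distal bud, had levels of 9.13, 9.13 and 9.15 in controls 1 to 3 and of 8.54, 8.44 and 8.57 in DKO 1 to 3 (-0.63, SE 0.05, limma adjusted p = 0.000661). Hhip, the hedgehog antagonist next to the bud tips, fell by 0.58 (SE 0.11, limma adjusted p = 0.024). The T-box genes Tbx4 and Tbx5, which drive Fgf10 expression in lung mesenchyme, stood at -0.01 (interval -0.12 to 0.10) and 0.04 (interval -0.07 to 0.15). The forkhead gene Foxf1 stood at -0.06 and the hedgehog effector Gli3 at 0.16 (adjusted p = 0.155). The largest change short of the threshold was that of Wnt2 (-0.27, adjusted p = 0.104). Of the 17 genes, 6 had an unadjusted limma p under 0.05, against 12.8% of all genes, with 11 values below 0 and 6 above.

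Of 10 bud tip genes, Sftpc, which encodes surfactant protein C (-2.37, SE 0.18, limma adjusted p = 0.000354), and Shh, the epithelial ligand that restrains Fgf10 in the mesenchyme (-0.59, SE 0.08, adjusted p = 0.00813), fell and 0 rose. The tip factor Sox9 (-0.15, adjusted p = 0.281) and the ligand Bmp4 (0.09, adjusted p = 0.733) did not pass. The largest change short of the threshold was that of Wnt7b (-0.31, adjusted p = 0.0859). In this list 7 of 10 genes had an unadjusted limma p under 0.05, against 12.8% of all genes. The groups did not overlap for 8 of 10, against 18.8%, with 7 values below 0 and 3 above. Shh had levels of 9.24, 9.26 and 9.17 in controls 1 to 3 and of 8.44, 8.68 and 8.79 in DKO 1 to 3. All DKO values of Shh lay below all controls.

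Beside the falls of 3 receptors, 12 of the 27 epithelial markers fell, 15 did not pass and 25 of 27 were below 0. The mean level of the 27 epithelial markers was 8.76 to 8.82 in the control arrays and 8.35 to 8.51 in the DKO arrays. The markers with the largest falls were the protease gene Prss8 (-0.91) and the trafficking gene Rab25 (-0.89). Of the 27 markers, 5 had a lower change than Fgfr2, 11 a lower change than Fgfr4, and 12 a lower change than Fgfr3 and Etv5. In comparison, 25 of 27 had a lower change than Spry2, Fgf9 and Fgfr1.

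The part of epithelial content in the falls of the receptors and Etv5 was not measured. Each gene was set against the mean of these markers within each array, which describes relative change only. In that comparison Fgfr2 was still lower (-0.24, SE 0.07, limma adjusted p = 0.006). That call was kept against the median of the centred markers (-0.28, adjusted p = 0.00217). It was lost against the mean of the 15 brighter markers (-0.14, adjusted p = 0.0814) and against the median marker level (-0.04, adjusted p = 0.621). Fgfr4 (-0.11, interval -0.28 to 0.06), Fgfr3 (0.02, interval -0.13 to 0.17) and Etv5 (0.01, interval -0.13 to 0.15) did not differ from the marker mean past the threshold. Against the median marker level, Fgfr3 (0.21, limma adjusted p = 0.02) and Etv5 (0.20, adjusted p = 0.0292) passed as higher, as did 98.8% of all genes. Etv4 stood at 0.14 against the marker mean (adjusted p = 0.0576) and at 0.33 against the median level (adjusted p = 0.000494). Spry2 (0.35, SE 0.08, adjusted p = 0.00101), Spry4 (0.48, SE 0.07, adjusted p = 0.000237) and Fgf10 (1.4, SE 0.13, adjusted p = 2.92e-05) were higher relative to the markers. That is the side on which 94.6% of all genes were called, so it is not particular to them. On the lower side, where Fgfr2 lay, 0.431% of all genes were called. The marker mean itself changed by -0.345, which bears on both shares, so the small share does not single out Fgfr2. As with Fgfr1, the same values were subtracted from every gene, so the p-values of this comparison can overstate the evidence.

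**Figure D4:**
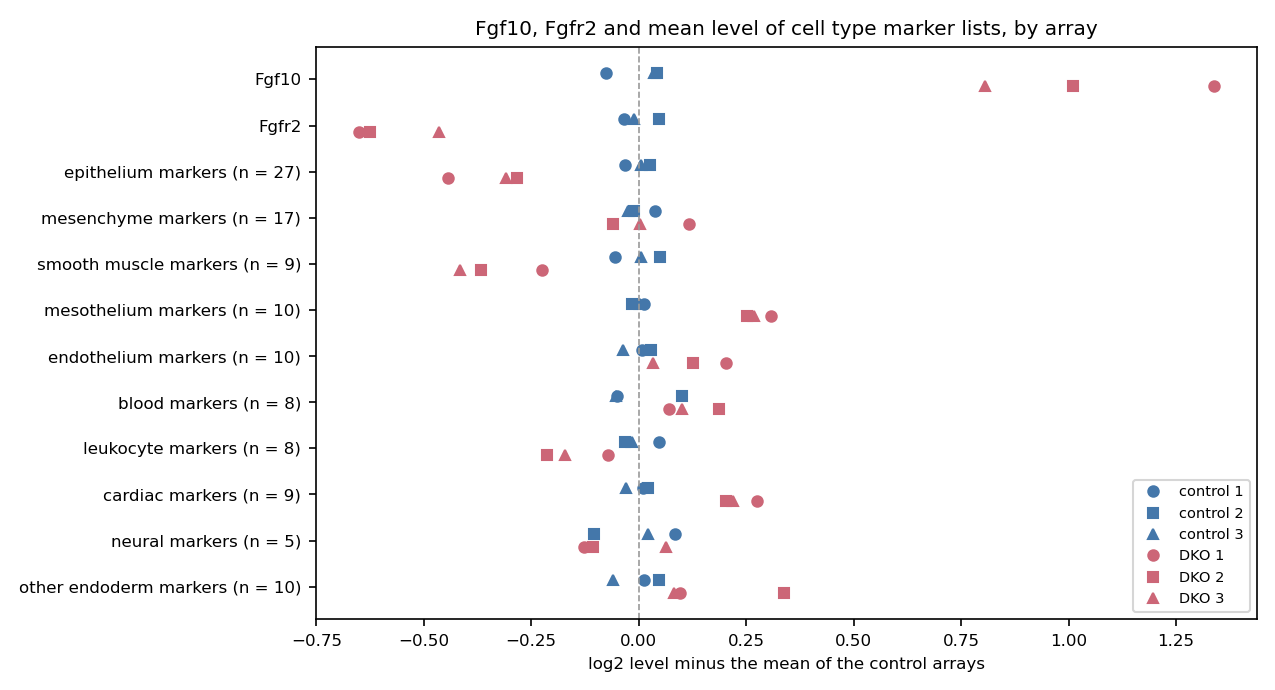
Fgf10, Fgfr2 and the mean level of each cell type marker list in every array, as log2 level minus the mean of the control arrays; blue is control, red is DKO, and shapes give the replicate number. In the DKO arrays the epithelial, smooth muscle and leukocyte lists lie to the left of all controls, the mesothelial, cardiac, endothelial (narrowly) and other endoderm lists to the right, and the mesenchymal, blood and neural lists overlap.

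The other marker lists, given beside the rise of Fgf10, are read against the 1.03% of all genes called higher and the 1.38% called lower. Of 17 mesenchymal markers, the homeobox gene Meox2 rose (0.63) and Twist2 fell (-0.28), and the mean level was 10.55 to 10.61 in control and 10.51 to 10.69 in DKO. Of 10 mesothelial markers, 3 rose, led by the calretinin gene Calb2 (1.28) and the uroplakin gene Upk1b (0.47), and 0 fell. Their mean level was 8.42 to 8.45 in control and 8.68 to 8.74 in DKO. Of 9 cardiac markers, the atrial myosin gene Myl7 rose (0.80) and 0 fell, with mean levels of 7.94 to 7.99 in control and 8.17 to 8.24 in DKO. Of 9 smooth muscle markers, 6 fell and 1 rose, with the largest changes in Actg2 (-0.70) and Cnn1 (-0.63). Among 10 endothelial, 8 blood, 8 leukocyte and 5 neural markers limma called 0 each, with 2, 2, 4 and 2 at an unadjusted p under 0.05, against 12.8% of all genes. The mean level of the endothelial list lay higher in all DKO arrays (9.79 to 9.96) than in the controls (9.72 to 9.79), and 10 of its 10 markers were above 0. The leukocyte list lay lower in all DKO arrays (8.24 to 8.38 against 8.42 to 8.50) and the list of other endoderm higher (7.43 to 7.69 against 7.29 to 7.39). In that last list 1 of 10 markers rose, the albumin gene Alb (0.96). DKO 1, the highest array for Fgf10, was also the highest DKO array for the mesenchymal, mesothelial, endothelial, cardiac, smooth muscle and leukocyte lists. It was the lowest DKO array for the epithelial, blood and neural lists, and lay between the others for other endoderm. The part of these cell types in the Fgf10 value was not tested.

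The genes whose profile over the 6 arrays lay closest to Fgf10 and Fgfr2 were ranked by the root-mean-square difference of log2 levels centred on the control mean, among 17048 named genes. Closest to Fgf10 were Gas6, a ligand of TAM receptors (0.14), the chemokine gene Cxcl15 (0.16), Nup62cl (0.19), the surfactant protein gene Sftpa1 (0.19) and the adrenomedullin receptor gene Calcrl (0.20). Closest to Fgfr2 were the keratin gene Krt8 (0.03), Mal2, a gene of apical trafficking (0.04), the epithelial transcription factor gene Grhl2 (0.04), Lrrn3 (0.05) and Gprc5c (0.06). Krt8 fell by 0.56 and Grhl2 fell by 0.61, both of them on the epithelial marker list, against the fall of 0.58 in Fgfr2. No ranked gene came as close to Fgf10 as these did to Fgfr2. The difference is not scaled, and Fgf10 had the larger change and the larger SD in DKO (0.27 against 0.10), so the 2 sets of distances are not comparable.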

How the data were processed

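Total RNA (100 ng per sample) from E11.5 lung buds was amplified, labelled with biotin and hybridised to MoGene 1.1 ST arrays, per the labels' protocols. The deposited table holds 1 log2 value for each of 35556 probes on 6 arrays. Oligo, RMA and limma are named in the submitters' processing notes, with no versions. RMA corrects background and gives the arrays a common intensity distribution, so a shift common to all genes cannot be seen. The log base was taken from RMA and from the range of the values, and their number of arrays limits the precision.

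Probes with exactly 1 gene in the platform annotation were kept (21789), and each of the 19938 genes was represented by its brightest probe. Groups came from the sample titles. The group difference of every gene came from limma 3.58.1 under R 4.3.3 (lmFit and eBayes, two-sided, no covariate), with p-values adjusted by Benjamini-Hochberg over all genes. Intervals are 95%. On simulated data of 19938 genes, 48.4% of genes changed 1.25-fold, 82% changed 1.5-fold and 99.2% changed 2-fold were recovered. The simulation changed 200 genes and gave both groups of a gene the same SD. In these data the DKO SD was larger for 67.8% of all genes, so the rates may not hold for these arrays. The 10 genes, the lists and the naming rule (all 10; per pathway list every call, at most 4 per direction, or the 2 largest changes; per marker list the 2 largest calls; 5 closest profiles) were chosen with earlier results of these data known. Alternatives were the replicate block, leaving out each array, trend, robust or weighted fits, 2 further normalizations, a filter on dim genes and other uses of the probes. The 2 further epithelial references were chosen after seeing the data. Genes named outside the naming rule were Sulf2, Dusp6, Etv1, Spry3, Tbx4, Tbx5, Foxf1, Gli3, Wnt2, Sox9, Bmp4 and Wnt7b.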

Additional observations from a re-analysis of the deposited data

How the results depend on the processing

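Fgf10, Fgfr2 and Fgfr4 kept direction and call under all 15 alternatives, at changes of 0.88 to 1.17, -0.64 to -0.49 and -0.54 to -0.40. With 1 array left out, 2 to 4 of the 10 genes were called lower, and 0 to 2 of the other pathway genes higher and 0 to 1 lower. Without control 1, 2 or 3, the other pathway calls were 0 higher and 0 lower. The other pathway calls higher in DKO were 3 with the intensity trend, 3 with array weights, 2 after a second quantile normalization and 2 without the dimmest 30% of genes. Those lower in DKO were 4 with array weights and 0 with the replicate block. The replicate numbers did not pair the arrays (correlations of -0.06, 0.05 and 0.16), and the block gave 406 calls over all genes, an adjusted p of 0.00813 for Fgf10 and of 0.0507 for Hdac1. Over all genes, the 481 calls became 197 to 811 with 1 array left out, 725 with the intensity trend and 2003 with array weights; the cause was not tested.

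Values near 0 changed sign. With 1 array left out, the change ranged from -0.0696 to 0.0533 for Fgf9, -0.00203 to 0.0682 for Fgfr1 and -0.0478 to 0.0594 for Spry2. With array weights, Fgfr1 stood at -0.00377 and Spry2 at -0.0395. Relative to Fgfr1, Fgf9 ranged from -0.136 to 0.0415. Relative to the epithelial markers, Fgfr3 ranged from -0.0243 to 0.0586 and Etv5 from -0.0188 to 0.0324. Against the median marker level, Fgfr4 stood at 0.0785, and Fgfr3, Etv5 and Etv4 passed as higher. Against the median of the centred markers, added after seeing the data, Fgfr3 stood at -0.0222 and Etv5 at -0.0361. The brighter markers were likewise added after seeing the data.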
